A study of Homo sapiens with 2 samples.

Results

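Fatty acid synthesis, desaturation and oxidation genes were examined in SK-ES1 cells, an established line of Ewing sarcoma, a tumour driven by the fusion of EWSR1 and FLI1. Of 44 listed genes, 37 were detected, that is, a probe passed a detection p-value of 0.01 on 1 array or both. They were among 10194 detected genes in all. Total RNA of radiation-adapted SK-ES1 cells, whose label carries the value 4 Gy, and of wild type SK-ES1 cells was hybridised to Illumina expression arrays. There was 1 array per group and no replicate, so no difference below has a test or a spread between cultures, and the number of arrays limits the precision. Neither the radiation schedule, nor the time from the last dose to RNA extraction, nor whether the adapted cells are a clone is stated in the labels. The comparison asks how the adapted cells differed from the wild type cells.

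Detected probes made up 32.5% of the radiation-adapted array and 33.6% of the wild type array, of 47323 probes each, and the median raw signal was 139.3 on the radiation-adapted array and 137 on the wild type array. Of 15 Ewing sarcoma marker genes, 14 were detected, among them CD99, NKX2-2 and FLI1. Among marker lists of other cells, 1 of 8 adipocyte genes was detected (LEP, while ADIPOQ, PLIN1 and FABP4 were not), 1 of 6 hepatocyte genes, 5 of 8 fibroblast genes, 3 of 8 leukocyte genes, 2 of 6 epithelial genes and 1 of 5 endothelial genes. LEP, which encodes leptin, was 2.39-fold higher, with 474.9 raw units in radiation-adapted cells against 254.7 in wild type cells. The fibroblast genes ranged from -0.59 to 1.10 in log2 ratio, the highest being COL1A2, whose second probe was at -0.06. Of the leukocyte genes, CD68 was at 0.89, with a second probe at -0.23, LCP1 was at -0.37, and CORO1A was detected in wild type cells alone. Their part in the results was not tested. In RNA from whole cultures, fewer cells with a transcript and less of it per cell cannot be told apart.

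Cells make palmitate from citrate in the cytosol. ATP citrate lyase releases acetyl-CoA, acetyl-CoA carboxylase makes malonyl-CoA, and fatty acid synthase joins the units. Desaturases and elongases then shape the chain, acyl-CoA synthetases activate free fatty acids, and these are either stored as triglyceride or carried into mitochondria on carnitine and broken down by beta-oxidation. Malonyl-CoA inhibits that import, so synthesis and oxidation are known to oppose each other. Many of the synthetic and desaturating enzymes are known targets of the sterol regulatory element-binding proteins, which also drive cholesterol synthesis.

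In the radiation-adapted cells, the genes of palmitate synthesis and 2 desaturase genes, SCD and FADS1, had higher signals than in wild type cells. Most genes of beta-oxidation and of the carnitine shuttle had slightly lower ones. Ratios are log2 of normalized signal, radiation-adapted minus wild type. The 17 detected genes of synthesis, elongation and desaturation had a median ratio of 0.20, with 12 above 0 (70.6%). The 20 detected genes of activation, storage and oxidation had a median of -0.18, with 5 above 0 (25%). The genes below 0 include LPIN2 (-0.08), PLIN2 (-0.05) and DGAT1 (-0.03), and in the first set ELOVL6 (-0.02). These had slightly higher raw signals in the radiation-adapted cells and so have no direction. Over all detected genes the median was -0.04 and 46.5% lay above 0. FADS3 and PLA2G3, both above 0, passed the detection rule only through radiation-adapted cells. ACADS and PLIN2, both below 0, passed it only through wild type cells. With genes detected on both arrays alone, 68.8% of the first set and 23.5% of the second lay above 0. Their medians were then 0.20 and -0.22, beside -0.03 for all such genes. The medians of the 2 sets of genes differed by 0.39. Within the first set elongation did not share the direction of the others, and within the second ACSL4 and PLA2G3 stood apart, as the plot by role shows.

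**Figure D1:**
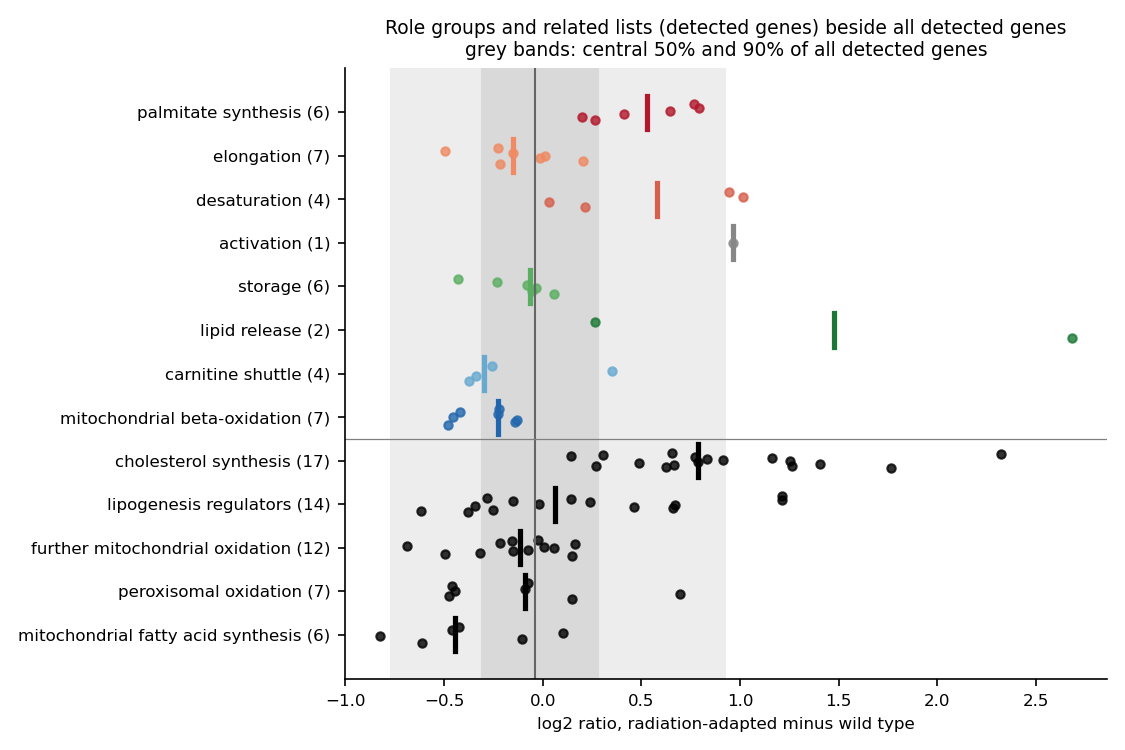
Log2 ratio (x axis, radiation-adapted minus wild type) of the detected genes in each role group and in 5 related lists (rows, with the number of genes). Points are genes, thick bars are medians, and the grey bands hold the central 50% and 90% of all detected genes around their median of -0.04. Palmitate synthesis (median 0.53) lies to the right, and mitochondrial beta-oxidation (-0.23) lies to the left. The desaturation median (0.58) falls between SCD (0.95) and FADS1 (1.02) on one side and FADS2 (0.03) and FADS3 (0.21) on the other, with no gene near it. FADS3 was detected in radiation-adapted cells alone. All 7 beta-oxidation genes are below 0 by their brightest probe, ACADS being detected in wild type cells alone.

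By measured ratio, 2 of the 37 genes, FADS1 and PLA2G3, were higher in radiation-adapted cells by 2-fold or more (5.41%), beside 4.03% of all detected genes, and 0 were at least 2-fold lower, beside 2.09%. With genes detected on 1 array held at a lower bound on their fold, the same 2 genes were past 2-fold higher, beside 2.93% of all detected genes, and 0 were past 2-fold lower, beside 1.37%. These shares are near those of all genes. At 1.5-fold, 7 of the 37 were higher (18.9%), beside 12.5% of all detected genes, and 0 were lower, beside 9.61%. Of these 7, ACLY, ACSS2, ACACA, SCD and FADS1 belong to synthesis and desaturation, and ACSL4 and PLA2G3 to activation and lipid release. A measure of error on these arrays is the disagreement between probes of a gene. It combines error of measurement with differences between isoforms, and says nothing of how cultures vary. Over 2568 genes with more than 1 detected probe, the disagreement gave an SD of 0.33 for the ratio of a single probe. Of the 37 genes, 9 lay above 0 by more than this SD (24.3%), beside 22.2% of all detected genes, and 7 lay below 0 by more than it (18.9%), beside 23.6%. Where a gene seen on a single array was held at its bound, the counts were 9, beside 20.6% of all detected genes, and 6, beside 20.8%. These counts are near those of all genes. Over the 2202 genes with more than 1 probe detected on both arrays, the SD was 0.28.

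**Figure D2:**
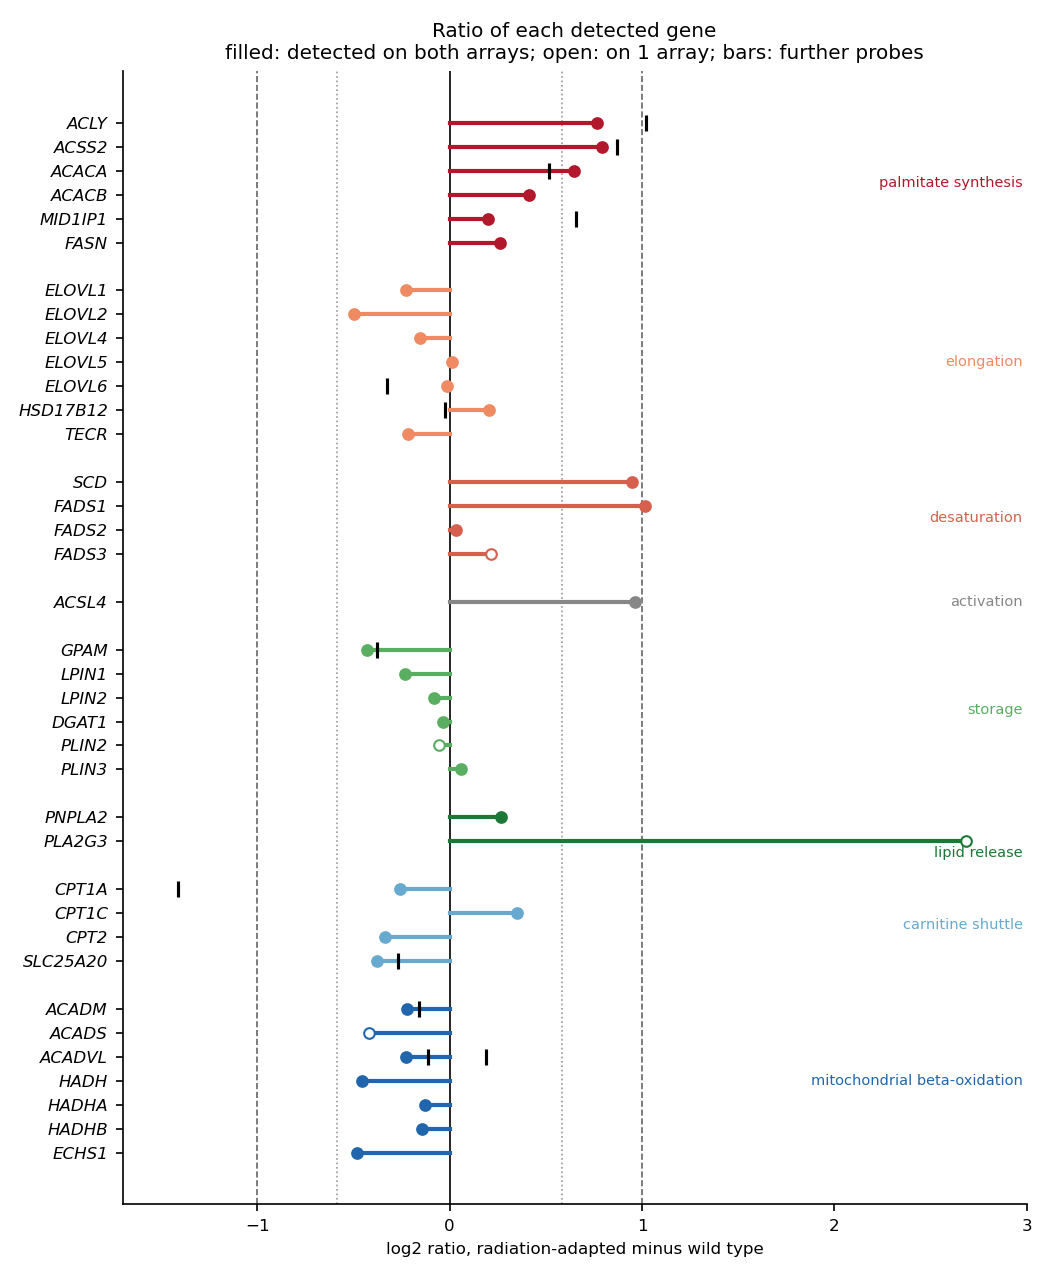
Log2 ratio (x axis, radiation-adapted minus wild type) of each of the 37 detected genes (rows), grouped by role. Filled points were detected on both arrays, open points on 1 array (drawn at the measured ratio, not the bound), black bars are further probes of the gene, and the dotted and dashed lines mark 1.5-fold and 2-fold. FADS1 and PLA2G3 lie at or beyond 2-fold, SCD and ACSL4 just short of it, and no gene lies beyond 1.5-fold on the lower side.

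All 6 palmitate synthesis genes had a higher signal in the radiation-adapted cells, beside 46.5% of all detected genes above 0. Their median ratio was 0.53, and 3 of the 6 were past 1.5-fold (50%), beside 12.5% of all detected genes. ACSS2, which makes acetyl-CoA from acetate, had a raw bead signal of 675.1 in the radiation-adapted cells, against 424.3 in the wild type cells. After normalization the log2 signal was 9.12 in radiation-adapted cells against 8.33 in wild type cells, a ratio of 0.79 or 1.73-fold. ACLY, which makes cytosolic acetyl-CoA from citrate, had a raw signal of 1322 in the radiation-adapted cells, against 806.4 in wild type cells, 1.70-fold higher (0.77). The brightest probes of these 2 acetyl-CoA-forming enzymes thus gave close ratios.

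ACACA, the carboxylase of the cytosol that commits carbon to fatty acid synthesis, had 425.0 raw units in the radiation-adapted cells, against 299.9 in wild type cells, 1.56-fold higher (0.65). ACACB, the carboxylase at the mitochondrial surface whose malonyl-CoA holds back import for oxidation, had 885.5 raw units in radiation-adapted cells against 681.8 in wild type cells, 1.33-fold higher (0.41). FASN, the fatty acid synthase itself, had 5823 raw units in the radiation-adapted cells and 4696 in wild type cells, 1.20-fold higher (0.26). MID1IP1, which promotes assembly of the carboxylase into active filaments, had 1095 raw units in radiation-adapted cells against 948.9 in wild type cells, a ratio of 0.20. The ratios of FASN and MID1IP1 were smaller than the probe SD of 0.33, and those of the other 4 genes were larger.

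Further probes of these genes gave the same side of 0. The second probe was at 1.02 for ACLY, at 0.87 for ACSS2 and at 0.52 for ACACA. For MID1IP1 it was at 0.66, far from the 0.20 of the brighter probe, so the size of that difference is uncertain. FASN and ACACB had 1 detected probe each.

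**Figure D3:**
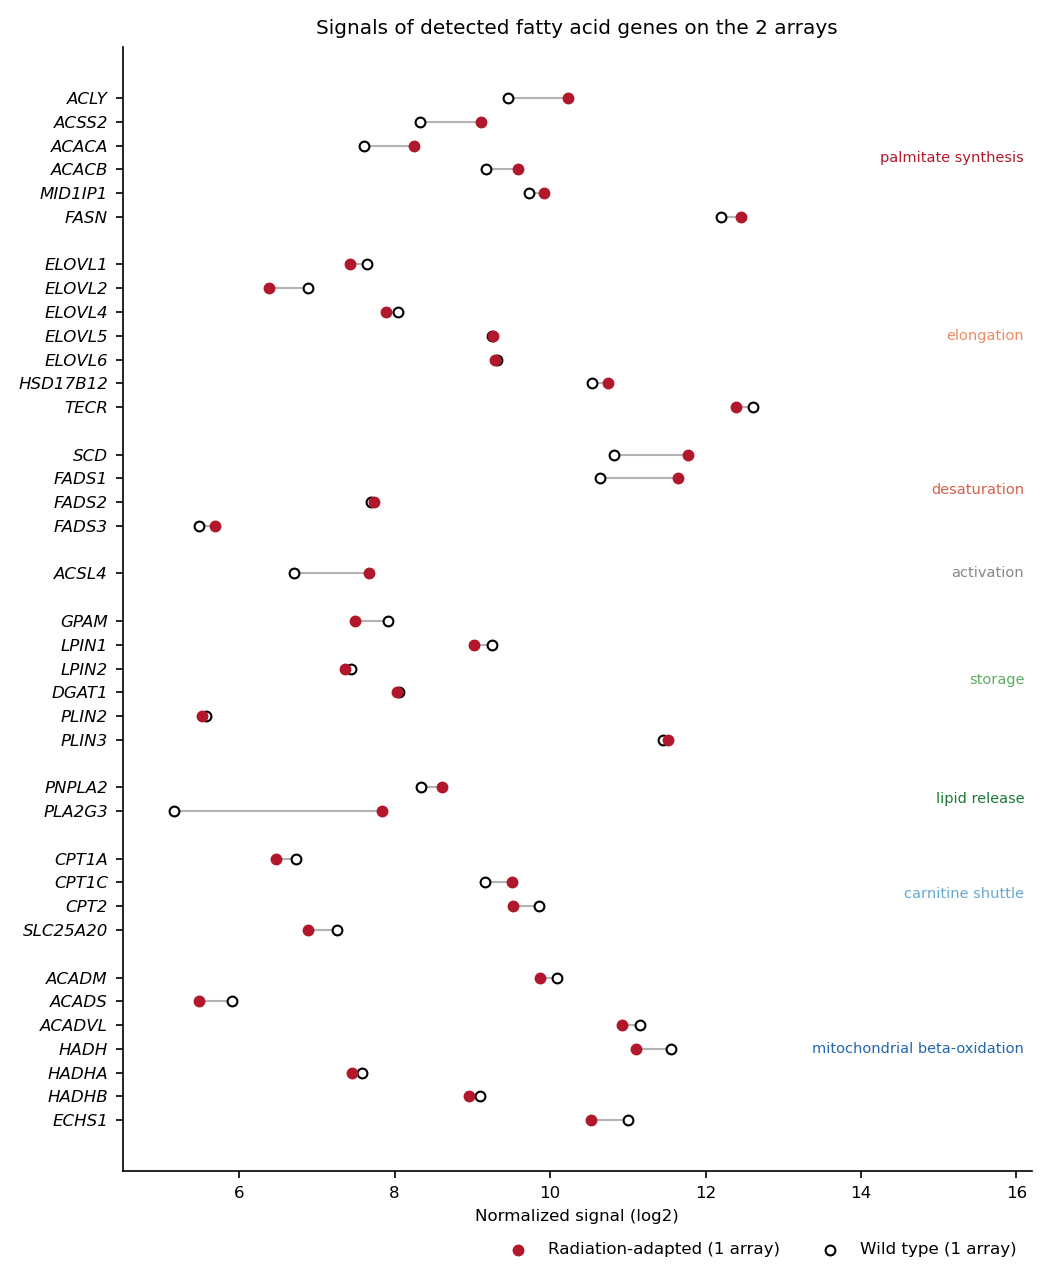
Normalized log2 signal (x axis) of the 37 detected genes (rows) in radiation-adapted cells (filled red points) and wild type cells (open points), 1 array each, grouped by role. The points of 1 gene may be compared, but levels of different genes may not, because probes differ in brightness. The red points lie to the right for all 6 palmitate synthesis genes and to the left for all 7 beta-oxidation genes. Each gene is drawn by its brightest probe, and ACADS was detected in wild type cells alone.

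Among the desaturases, the stearoyl-CoA desaturase gene and the delta-5 desaturase gene were about 2-fold higher, FADS2 was near equal, and FADS3 was near the detection limit. SCD, which puts the first double bond into saturated chains and so makes oleate, had 3656 raw units in the radiation-adapted cells, against 1902 in the wild type cells. Its normalized signals of 11.77 in radiation-adapted cells and 10.83 in wild type cells gave a ratio of 0.95, 1.93-fold, above that of 95.2% of detected genes. FADS1, the delta-5 desaturase of polyunsaturated fatty acids, had 3382 raw units in radiation-adapted cells and 1689 in wild type cells. The ratio was 1.02, 2.02-fold, above that of 96.1% of detected genes.

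FADS2, the delta-6 desaturase that works before FADS1 in the same route, had 331.6 raw units in radiation-adapted cells against 312.5 in wild type cells, a ratio of 0.03. FADS1 and FADS2 are neighbours, and in the RefSeq entries used here their start sites lie 800 bases apart on opposite strands. From these starts both genes run toward each other. Whether the FADS2 transcript read by the probe begins at this start was not tested. FADS3, a related gene of the same cluster, was near the detection limit, with detection p-values of 0.00779 in the radiation-adapted cells and 0.01299 in the wild type cells, and was at least 1.10-fold higher. Such a bound sets the detected signal against the dimmest probe that counted as detected on the other array, or against the gene's own signal there if that is brighter. SCD, FADS1, FADS2 and FADS3 had 1 detected probe each, so none of them has a repeat on these arrays.

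Promoters of the synthesis and desaturation genes that differed most are shown with that of FADS2, which differed little, and of ECHS1, a beta-oxidation gene with a lower signal. Each sequence runs 5′ to 3′ on the strand of the gene, from 250 bases before to 50 bases after the start, from RefSeq on GRCh38.p14. Capitals mark the CCAAT box (CCAAT, bound by NF-Y) and the GC box (GGGCGG, bound by Sp1) on either strand, overlapping matches included.
ACLY (chr17:41918973-41919272, minus strand): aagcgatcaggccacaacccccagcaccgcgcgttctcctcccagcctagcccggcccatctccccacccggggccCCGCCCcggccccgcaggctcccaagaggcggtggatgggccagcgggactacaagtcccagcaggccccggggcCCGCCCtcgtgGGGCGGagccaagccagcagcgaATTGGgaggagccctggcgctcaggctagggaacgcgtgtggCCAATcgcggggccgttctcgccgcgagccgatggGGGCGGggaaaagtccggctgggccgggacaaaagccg
ACSS2 (chr20:34874739-34875038, plus strand): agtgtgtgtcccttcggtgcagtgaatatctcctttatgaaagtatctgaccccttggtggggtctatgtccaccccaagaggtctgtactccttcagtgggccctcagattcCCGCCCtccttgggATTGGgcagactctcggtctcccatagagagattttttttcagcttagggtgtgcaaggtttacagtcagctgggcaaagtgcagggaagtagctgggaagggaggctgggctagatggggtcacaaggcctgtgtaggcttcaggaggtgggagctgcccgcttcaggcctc
SCD (chr10:100346983-100347282, plus strand): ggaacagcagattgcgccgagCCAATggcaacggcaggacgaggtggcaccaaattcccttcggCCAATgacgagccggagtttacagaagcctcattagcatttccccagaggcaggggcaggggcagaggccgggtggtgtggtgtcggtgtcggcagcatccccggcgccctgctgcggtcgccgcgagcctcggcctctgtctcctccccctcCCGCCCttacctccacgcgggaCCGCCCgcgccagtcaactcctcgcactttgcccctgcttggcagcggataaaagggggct
FADS1 (chr11:61816954-61817253, minus strand): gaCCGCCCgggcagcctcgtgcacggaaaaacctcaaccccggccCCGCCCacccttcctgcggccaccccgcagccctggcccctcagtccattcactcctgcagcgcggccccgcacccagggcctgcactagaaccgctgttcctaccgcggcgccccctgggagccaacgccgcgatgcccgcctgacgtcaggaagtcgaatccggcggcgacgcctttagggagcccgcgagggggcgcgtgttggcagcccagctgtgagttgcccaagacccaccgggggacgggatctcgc
FADS2 (chr11:61815953-61816252, plus strand): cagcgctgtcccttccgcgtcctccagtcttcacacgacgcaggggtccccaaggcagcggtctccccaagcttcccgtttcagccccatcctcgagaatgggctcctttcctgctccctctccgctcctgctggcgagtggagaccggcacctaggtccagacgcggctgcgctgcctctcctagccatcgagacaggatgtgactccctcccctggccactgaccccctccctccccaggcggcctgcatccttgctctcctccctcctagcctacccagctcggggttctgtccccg
ECHS1 (chr10:133373305-133373604, minus strand): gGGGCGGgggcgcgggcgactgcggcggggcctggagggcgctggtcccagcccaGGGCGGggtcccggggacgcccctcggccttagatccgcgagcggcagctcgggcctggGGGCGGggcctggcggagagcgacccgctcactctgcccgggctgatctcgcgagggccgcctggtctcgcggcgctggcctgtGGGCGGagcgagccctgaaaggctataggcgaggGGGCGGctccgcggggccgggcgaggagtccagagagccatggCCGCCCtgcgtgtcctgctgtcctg

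ACLY held 2 CCAAT boxes, with their nearest bases 19 and 61 bases before the start, and 4 GC boxes. SCD held 2 CCAAT boxes, 182 and 225 bases before the start, and 2 GC boxes. ACSS2 held 1 of each. FADS1 held 2 GC boxes and no CCAAT box, FADS2 neither motif, and ECHS1 6 GC boxes and no CCAAT box. A promoter was in the table for 33 of the 37 detected genes.

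The CCAAT box was present in 9 of 15 promoters of synthesis, elongation and desaturation genes (60%) and in 4 of 18 of activation, storage and oxidation genes (22.2%). All 27305 promoters of the same length had it in 35.7%, and those of detected genes in 37.9%. It was in 4 of 6 elongation promoters, although these genes were not higher in the radiation-adapted cells. The GC box was in 12 of the 15 (80%) and in 15 of the 18 (83.3%), beside 44.6% of all promoters and 70.7% of those of detected genes. A sterol regulatory element spelled TCACNCCAC, searched on both strands, was in the promoters of MID1IP1 and PNPLA2, 2 of 33 (6.06%). It was in 1.15% of all promoters and 1.09% of those of detected genes. Of 15 promoters of cholesterol synthesis genes, 0 had this spelling, so the search missed a pathway known to be driven by these proteins. A match is a stretch of letters and not a shown binding site, and a missing match says only that the letters are not in this window.

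The elongation genes did not share the higher signals. Of 8 listed genes 7 were detected, 2 were above 0 and 5 below, with a median ratio of -0.15 and a range from -0.50 to 0.20. ELOVL6, which extends palmitate to stearate and is the elongase closest to synthase and SCD in the route, had normalized signals of 9.30 in the radiation-adapted cells and 9.31 in wild type cells, a ratio of -0.02, and its second probe was at -0.33. ELOVL5, an elongase of polyunsaturated chains, was at 0.01, and ELOVL1 and ELOVL4, which make very long chains, were at -0.23 and -0.15.

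ELOVL2, which extends long polyunsaturated chains, was lowest, with 6.38 in radiation-adapted cells against 6.88 in wild type cells, 1.41-fold lower. It was the 1 elongation gene beyond the probe SD. The genes of the 2 reductases of each elongation round had ratios within the probe SD and showed no clear direction. HSD17B12, the ketoacyl reductase, was at 0.20, with a second probe at -0.03, and TECR, the enoyl reductase of the last step, was at -0.22. The dehydratases of the same round were listed as related genes. HACD2 was 1.66-fold higher (0.73, with its second probe also at 0.73), HACD4 1.97-fold higher (0.98), and HACD3 was at -0.34.

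Activation by acyl-CoA synthetases could be read from 1 gene. ACSL4, which prefers arachidonic acid and other polyunsaturated chains, had 322.2 raw units in the radiation-adapted cells and 212.2 in wild type cells, 1.95-fold higher (0.96). That ratio depended on the processing, as it was 0.54 without background correction and 1.05 with the authors' processed values. ACSL1, ACSL5 and ACSL6 were not detected on either array, and ACSL3 was not analysed here.

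Storage genes differed little. The median ratio of the 6 detected genes was -0.07, with 1 above 0. GPAM, which starts glycerolipid synthesis at the mitochondrial outer membrane, had the largest difference, with 7.49 in radiation-adapted cells against 7.92 in wild type cells, 1.35-fold lower (-0.43), and its second probe was at -0.38. The phosphatidate phosphatase genes LPIN1 and LPIN2 were at -0.23 and -0.08, and DGAT1, which makes the last bond of triglyceride, was at -0.03. Of the lipid droplet coat genes, PLIN3 was at 0.06 and PLIN2 was at the detection limit. PLIN2 had detection p-values of 0.01169 in the radiation-adapted cells and 0.00909 in the wild type cells and is given no fold. For LPIN2, DGAT1, PLIN2 and ELOVL6 the raw signal was slightly higher and the normalized signal slightly lower in the radiation-adapted cells, so they have no direction.

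Of the lipid release genes, PLA2G3, a secreted phospholipase that frees fatty acids from phospholipids, was the gene with the highest ratio among the 37, also at its bound. Its raw signal was 349.6 in the radiation-adapted cells, against 145.7 in the wild type cells, where it was not detected (detection p-value 0.03247). It was at least 4.89-fold higher as processed here. That bound depended on the processing, and was 2.15-fold without background correction and 3.26-fold with an offset of 50. PNPLA2, the first lipase of stored triglyceride, was 1.20-fold higher (0.27), within the probe SD. Hormone-sensitive lipase, LIPE, fell just outside the detection rule, with detection p-values of 0.01169 in radiation-adapted cells and 0.23377 in wild type cells. So did DGAT2, the other triglyceride-forming enzyme, with 0.25974 in radiation-adapted cells and 0.01558 in wild type cells. ELOVL7 was far from the limit, with 0.72597 in radiation-adapted cells and 0.85714 in wild type cells.

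By their brightest probe, all 7 mitochondrial beta-oxidation genes had lower signals in the radiation-adapted cells. The median ratio was -0.23, the range was from -0.48 to -0.13, and none reached 1.5-fold lower, beside 9.61% of all detected genes. ACADS passed the detection rule only through wild type cells, where its signal was higher, and ACADVL had a further probe above 0. With genes detected on both arrays alone, the median was -0.22. ECHS1, the enoyl-CoA hydratase of short chains, had 1597 raw units in the radiation-adapted cells, against 2121 in the wild type cells, 1.40-fold lower (-0.48). HADH, the short-chain hydroxyacyl-CoA dehydrogenase that follows it, had 2356 raw units in radiation-adapted cells against 3086 in wild type cells, 1.37-fold lower (-0.45). ACADS, the short-chain acyl-CoA dehydrogenase, was detected in wild type cells alone and was at least 1.19-fold lower. ECHS1 and HADH were beyond the probe SD, and ACADS at its bound was not.

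ACADM, the medium-chain dehydrogenase, had 9.87 in radiation-adapted cells and 10.09 in wild type cells, a ratio of -0.22, with its second probe at -0.16. ACADVL, the very-long-chain dehydrogenase, was at -0.23, with further probes at -0.11 and 0.19, so its direction is uncertain. HADHA and HADHB, the subunits of the trifunctional protein, were at -0.13 and -0.14. Their genes are arranged head to head, with start sites 307 bases apart in RefSeq, and their ratios differed by far less than the probe SD.

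The carnitine shuttle brings long chains into the matrix. CPT1A, its rate-setting transferase at the outer membrane, had 6.47 in radiation-adapted cells and 6.73 in wild type cells, 1.20-fold lower (-0.26). Its second probe was detected in wild type cells alone and was at least 1.35-fold lower. SLC25A20, the carrier across the inner membrane, was 1.30-fold lower (-0.38), and its second probe, detected in wild type cells alone, was at least 1.16-fold lower. CPT2, which returns the chain to CoA in the matrix, had 854.0 raw units in the radiation-adapted cells, against 1035 in wild type cells, 1.26-fold lower (-0.34).

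CPT1C was the 1 shuttle gene with a higher signal, 1.28-fold (0.35). It is a brain isoform of the endoplasmic reticulum with little transferase activity, and is not known as a step of import. Of the 11 shuttle and oxidation genes, 10 lay below 0, as did 5441 of the 10194 detected genes, and with ACADS at its bound 4 of the 11 lay below 0 by more than the probe SD (36.4%), beside 20.8% of all detected genes.

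Related genes of the pathway were read from 11 further lists. Of 14 detected lipogenesis regulators, 7 were above 0 and 7 below, with a median ratio of 0.06, and 2 were at least 2-fold higher (14.3%), beside 4.03% of all detected genes. Of the 7 below 0, PRKAB1 was lowest (-0.62). SREBF2, also among these 7, was detected in wild type cells alone and was at least 1.18-fold lower. SREBF1, which encodes the sterol regulatory element-binding protein that favours fatty acid genes, had normalized signals of 9.21 in radiation-adapted cells and 7.99 in wild type cells, 2.32-fold higher (1.22), with a second probe at 1.27. INSIG1, which retains that protein in the endoplasmic reticulum and is itself one of its targets, had 8.80 in radiation-adapted cells against 7.59 in wild type cells, 2.31-fold higher (1.21). Both calls depended on the processing. Without background correction SREBF1 was at 0.94 and INSIG1 at 0.87, short of 2-fold, and 1.06% of all detected genes were at least 2-fold higher. All 17 detected genes of cholesterol synthesis were above 0, with a median of 0.79, beside 46.5% of all detected genes above 0, and 13 of them were at least 1.5-fold higher (76.5%), beside 12.5% of all detected genes.

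The largest ratios among the sterol genes were those of HMGCS1 (2.32), DHCR7 (1.77), MSMO1 (1.41) and HSD17B7 (1.26), and the further probes of MSMO1 were at 1.01 and -0.17, so the size of its difference is uncertain. These 4 were named by size, and the 17 detected genes of cholesterol synthesis ran from 0.14 to 2.32. The 6 palmitate synthesis genes had a median of 0.53, beside 0.79 for these 17. The highest of the 6 by brightest probe, ACSS2, was at 0.79. The 3 detected genes of low density lipoprotein uptake had a median of 0.18, led by NPC2 (0.43) and NPC1 (0.18). Supply of citrate and NADPH was mixed. Its 7 detected genes had a median of -0.20, with IDH1, the cytosolic isocitrate dehydrogenase, at 0.58 and PGD, of the pentose phosphate pathway, at -0.60.

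On the oxidation side, 12 further mitochondrial genes had a median of -0.11, with 8 below 0. The thiolase gene ACAA2 was lowest, 1.61-fold lower (-0.69). The electron carrier gene ETFB followed at -0.49, with a second probe at -0.14. Peroxisomal oxidation had a median of -0.09 over 7 genes, with CRAT, the carnitine acetyltransferase, 1.62-fold higher (0.70) and CROT at least 1.20-fold lower. Mitochondrial fatty acid synthesis, a separate pathway that makes the precursor of lipoic acid, had a median of -0.44 over 6 genes, 5 of them below 0. CBR4, its ketoacyl reductase subunit, was at -0.83, and LIAS, the lipoic acid synthase, was at -0.61 with a second probe at -0.79. This list was thus on the opposite side of 0 from cytosolic synthesis.

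Among regulators of oxidation, 2 were detected, the orphan receptor gene ESRRA (0.89) and PPARD (-0.02). Uptake and binding genes had a median of 0.25 over 6 genes, led by the transporter genes SLC27A3 (0.56) and SLC27A1 (0.54). The further glycerolipid and lipid droplet genes had a median of -0.06 over 10 genes, 4 above 0 and 6 below. Of these, PLIN5, a droplet coat protein of oxidative tissues, was 2.52-fold higher (1.34), but at 0.77 without background correction. On the other side, GPAT4, detected in wild type cells alone, was at least 1.69-fold lower, and AGPAT5 was 1.54-fold lower (-0.63). The reference genes ACTB and GAPDH had ratios of -0.07 and -0.09 by their brightest probes. Further probes were both at -0.02 for ACTB, but at -0.35 and -0.32 for GAPDH.

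Because whole stretches of a chromosome can differ in signal between related lines, each gene was set beside the median ratio of the nearest 25 protein-coding genes on each side that were detected on both arrays. The neighbour medians of the 37 genes ran from -0.33 to 0.16. All 6 palmitate synthesis genes were above their neighbours, by a median of 0.62. FASN stood out here, since its 36 neighbours had a median of -0.33, so that it was 0.60 above them although its own ratio was 0.26. ACLY and ACACA, also on chromosome 17, were 0.69 and 0.63 above their neighbours, and FADS1 and SCD stood above theirs by 0.98 or more. By their brightest probe, all 7 beta-oxidation genes were below their neighbours, by a median of 0.25 in size. Of these, ACADS was detected in wild type cells alone. ACADM was only 0.03 below, on a stretch of chromosome 1 with a median of -0.19. CPT2, also on chromosome 1, was 0.10 below a neighbour median of -0.24.

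**Figure D4:**
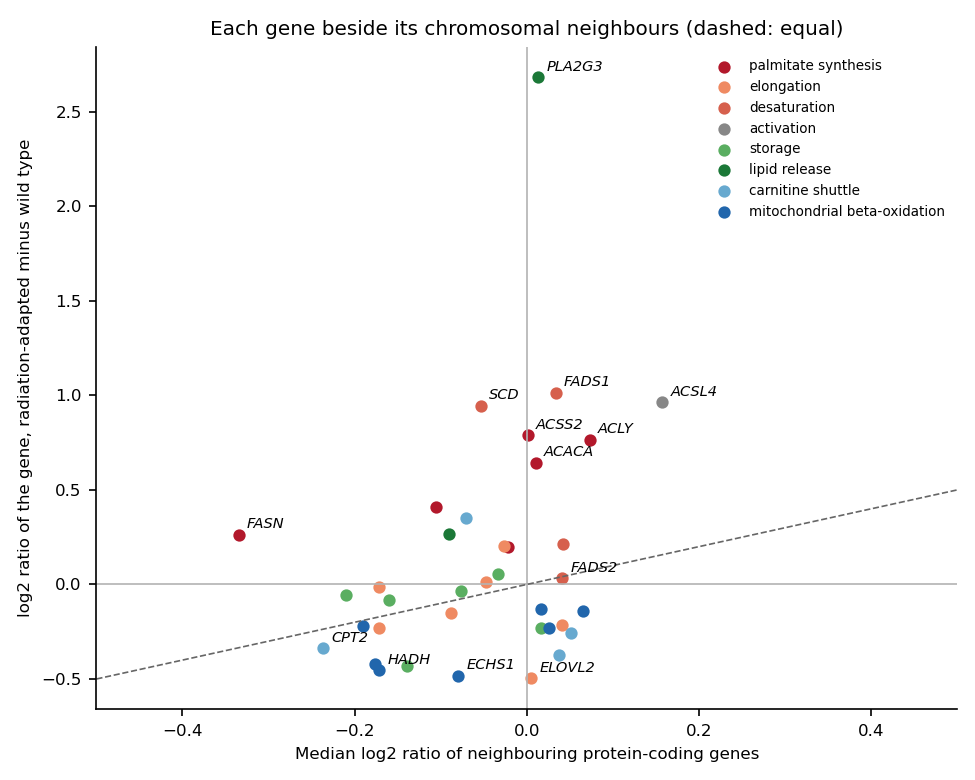
Log2 ratio of each detected gene (y axis) against the median log2 ratio of up to 50 neighbouring protein-coding genes (x axis), both radiation-adapted minus wild type, coloured by role. The dashed line marks equal values. Palmitate synthesis genes, SCD and FADS1 lie above the line, FASN farthest to the left at a neighbour median of -0.33, and the beta-oxidation genes lie below it.

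More than 1 probe was detected for 11 of the 37 genes, and in 9 of the 11 all detected probes gave the same side of 0. HSD17B12 and ACADVL were the exceptions. For 9 of the 11, 2 or more probes were detected on both arrays, and the brightest pair of these differed in ratio by a median of 0.13, beside 0.21 among all 2202 such genes, and by 0.46 at most, in MID1IP1. The medians of palmitate synthesis, desaturation and elongation, and of carnitine shuttle and beta-oxidation together, kept their sides of 0 under 8 other ways of processing the arrays.

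**Figure D5:**
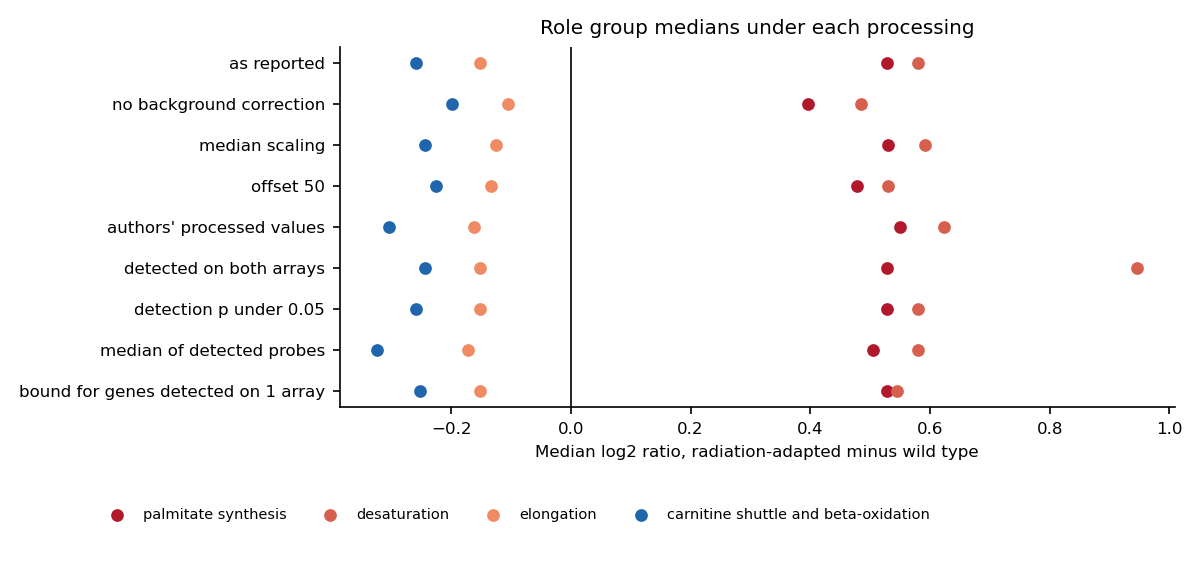
Median log2 ratio (x axis, radiation-adapted minus wild type) of 4 sets of genes under the reported processing and 8 alternatives (rows). Palmitate synthesis ran from 0.40 to 0.55, elongation from -0.17 to -0.10, and carnitine shuttle with beta-oxidation from -0.32 to -0.20. Desaturation moved to 0.95 where both arrays had to detect a gene, because FADS3 then dropped out.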

How the data were processed

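Total RNA was extracted with Trizol and made into biotinylated cRNA with an Illumina TotalPrep kit, per the labels' protocols. The authors deposited, for each of 47323 probes, an average signal intensity and a detection p-value, per the file headers; they called the signals non-normalized. Their processed intensity table is of unstated making; both columns share a median of 10.6 and their sorted values differ by at most 0.2, so it was read as linear and quantile-normalized, and served as an alternative. No source used here names the scanner or its software.

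Signals were background-corrected with limma 3.58.1 (neqc in R 4.3.3, normexp from detection p-values, offset 16), quantile-normalized and put on the log2 scale; the offset makes folds of dim genes smaller. Probe names came from GEO's platform annotation, updated through RefSeq (GRCh38.p14): 30113 probes had 1 gene, 8 several and 17202 were not named here. A gene was represented by its brightest detected probe. Members, lists and motifs were chosen with earlier results of these data known, and the motifs after the values were seen. Named were members, and of each related list genes at 2-fold (at most 4) or the 2 largest; HACD3, outside this rule, was chosen after its value was seen. The steps were tested on simulated data. Alternatives changed background correction, scaling, offset, source table, detection filter, probe choice, bounds, size rule and membership.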

Additional observations from a re-analysis of the deposited data

How the results depend on the processing

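Both sets of genes kept their side of 0 under all 10 alternatives run for them. The median of synthesis, elongation and desaturation ran from 0.18 to 0.21, that of activation, storage and oxidation from -0.22 to -0.12, and their difference from 0.30 to 0.43. The count of genes at least 2-fold higher, 2 as reported, was 1 without background correction (PLA2G3), 1 where both arrays had to detect a gene (FADS1), and 7 at 1.5-fold. With median scaling or the authors' processed values it was 2, with ACSL4 in place of FADS1, so FADS1, SCD and ACSL4 lie at the threshold. Over all detected genes, the counts of 411 higher and 213 lower became 108 and 28 without background correction, 213 and 70 with an offset of 50, 634 and 467 with the authors' values, 254 and 125 where both arrays had to detect a gene, and 299 and 140 at the bounds. The higher genes' share of these calls thus moved by over 10 percentage points without background correction. The ratio of PLA2G3 ran from 1.22 to 3.44, and the cause was not tested. The ratio of CPT1A was -0.84 as the median of its 2 detected probes, which were at -0.26 and -1.41. The second of these was not detected in radiation-adapted cells (detection p-value 0.27662). The bounds under other processing and the counts beyond the probe SD at the bounds were added after seeing the data; the bound of PLA2G3 ran from 2.15-fold to 5.02-fold. Among single genes, ELOVL5 and PPARD changed sign, both at ratios near 0, and the median of oxidation regulators was -0.02 with a detection p-value under 0.05, where further genes entered the list. No paired analysis was possible because each group held 1 array. Signals near background limit PLIN2, FADS3, ACADS and PLA2G3 in wild type cells.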
